A study of Mus musculus with 71 samples.

Results

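Colon tissue of Btnl2-KO and WT mice was compared across all genes and across cell-type programs. Members were the libraries whose titles name colon in the table of whole tissue, 7 Btnl2-KO and 6 WT, which made 13 of the 27 libraries of that table and of the 71 samples of the series. The other 14 libraries of the table, from small intestine, were used only to ask whether an effect of genotype differed between the tissues.

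The mice were C57BL/6. The Btnl2-/- allele was made with VelociGene technology by placing LacZ in frame at the start codon together with a selection cassette, which gave a null allele in all cells. WT mice lack the inserted sequence, and whether the selection cassette was later removed is not given in the sources used here. The study used cohoused female littermates, and the labels mark both groups as YNG, give no treatment, and do not state which piece of colon was taken. They also do not say that each library is 1 mouse, so p-values measure the spread between libraries, which may in part be technical. In whole tissue, fewer cells of a type and less RNA per cell cannot be told apart.

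Butyrophilin-like (Btnl) proteins are relatives of the B7 costimulatory molecules that sit on the surface of intestinal epithelial cells. In mice, Btnl1 pairs with Btnl6 or Btnl4 on enterocytes, and the Btnl1 and Btnl6 pair is needed for the growth and upkeep of the Vγ7 intraepithelial lymphocytes (IELs) that lie between epithelial cells. Btnl2 is described mainly as an inhibitor of T cell activation, and its gene lies at the edge of the MHC class II region beside Btnl1.

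Total counts ran from 13939615 to 21321241 per Btnl2-KO library and from 14091286 to 21708721 per WT library. Summed levels of colonocyte genes were at least 10187 CPM (counts scaled to a common library size) in every library, and those of small intestine genes were at most 468 CPM. Y-linked genes had at most 4 counts in a library. Libraries differed in other ways within and between genotypes. Of 6 tested genes of distal colon position, 5 had a higher mean in Btnl2-KO colon, with a median log2 fold change of 0.40. None had an unadjusted p below 0.05, and 3 Btnl2-KO sums were above the highest WT sum. Hoxd13, a gene of the distal hindgut, was at 44.8 to 80.8 CPM in Btnl2-KO 2, 3 and 5, at 62.5 CPM in WT 5, and at 4.80 to 15.9 CPM in the other 9 libraries. Btnl2-KO 2 stood apart from all others on the first principal component, which held 33.8% of the variance, and had the lowest scaling factor (0.827). The called genes, the differences between tissues and the lists of enteric neuron, intraepithelial lymphocyte and interferon gamma genes are therefore also given without Btnl2-KO 2 and without those 4 libraries, a choice made after the data were seen.

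Of 14871 genes tested, 4 passed both thresholds, an adjusted p (false discovery rate, FDR) under 0.05 and more than a 1.5-fold difference, in the quasi-likelihood test of edgeR, and such genes are named as called here. The genes Btnl2 and Btnl1 were lower in Btnl2-KO colon (0.0134% of the genes tested), and the gene of the RNA-binding protein Igf2bp3 and the long noncoding RNA 4930463O16Rik were higher (0.0134%). At an unadjusted p below 0.05, 402 genes were lower (2.7%) and 214 higher (1.44%), 616 in all. The median log2 fold change of all genes tested was 0.01.

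The 4 genes lie on 3 chromosomes. In the RefSeq annotation of GRCm38.p6, Btnl2 spans chr17:34354789-34369492 and Btnl1 chr17:34377123-34386162, so that Btnl1 begins 7631 bases after Btnl2 ends. Igf2bp3 spans chr6:49085218-49215469, where it overlaps Malsu1, and 4930463O16Rik spans chr10:84488293-84497676. Their promoter windows, 250 bases before to 50 bases after the start that the RefSeq promoter table gives each gene, are shown because the 4 genes carry the difference between the genotypes, and because in Btnl2 and Btnl1 the window holds the letters CAAAGTCC, a core of the site bound by the epithelial factor HNF4A, in capitals. The windows are chr17:34354572-34354871 (plus strand) for Btnl2, chr17:34376882-34377181 (plus strand) for Btnl1, chr10:84488043-84488342 (plus strand) for 4930463O16Rik and chr6:49214905-49215204 (minus strand) for Igf2bp3. That start is the first base of the gene span for 4930463O16Rik and lies 33 bases inside the span for Btnl2, 9 for Btnl1 and 515 for Igf2bp3.
Btnl2: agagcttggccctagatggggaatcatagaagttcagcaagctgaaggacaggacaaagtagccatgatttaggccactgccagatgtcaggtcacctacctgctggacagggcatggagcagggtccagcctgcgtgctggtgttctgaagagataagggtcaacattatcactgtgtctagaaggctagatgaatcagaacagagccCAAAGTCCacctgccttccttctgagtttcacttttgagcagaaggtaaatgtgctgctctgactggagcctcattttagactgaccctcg
Btnl1: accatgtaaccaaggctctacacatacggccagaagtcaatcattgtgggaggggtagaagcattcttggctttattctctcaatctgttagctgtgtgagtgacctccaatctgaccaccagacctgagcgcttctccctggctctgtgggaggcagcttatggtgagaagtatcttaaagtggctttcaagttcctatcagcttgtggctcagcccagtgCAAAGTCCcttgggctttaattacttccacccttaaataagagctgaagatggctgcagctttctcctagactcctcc
4930463O16Rik: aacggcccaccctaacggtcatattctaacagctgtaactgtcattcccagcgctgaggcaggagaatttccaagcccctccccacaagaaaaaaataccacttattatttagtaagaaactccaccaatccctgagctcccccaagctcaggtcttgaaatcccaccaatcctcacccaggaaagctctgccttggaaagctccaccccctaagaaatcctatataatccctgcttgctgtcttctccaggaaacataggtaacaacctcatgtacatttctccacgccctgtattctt
Igf2bp3: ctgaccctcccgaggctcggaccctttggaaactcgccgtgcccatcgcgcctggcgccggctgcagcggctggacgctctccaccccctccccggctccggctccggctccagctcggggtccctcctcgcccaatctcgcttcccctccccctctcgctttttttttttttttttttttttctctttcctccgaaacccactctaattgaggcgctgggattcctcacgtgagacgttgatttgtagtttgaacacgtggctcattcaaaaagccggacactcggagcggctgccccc

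The 8 letters, chosen after the windows were read and searched on both strands, began 41 bases before the start used for the Btnl2 window and 28 bases before that of the Btnl1 window, which are 8 and 19 bases before the first base of the gene spans. They occurred in 467 of 32851 RefSeq promoter windows of the same length (1.42%). The windows of 4930463O16Rik, Igf2bp3, Btnl4 and Btnl6 did not hold them. The starts used for Btnl4 and Btnl6 lie 1491 and 1424 bases inside their gene spans, against 33 for Btnl2 and 9 for Btnl1. Letters near the first base of the Btnl4 and Btnl6 spans were therefore not searched. Aligned end to end, the Btnl2 and Btnl1 windows were 52.5% identical, while those of Btnl4 and Btnl6 were 91.1% identical. These matches describe the letters of the windows alone.

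The targeted gene, Btnl2, was weakly expressed in WT colon and all but missing in Btnl2-KO colon. The 6 WT libraries held 51, 23, 41, 17, 15 and 23 reads (0.667 to 2.51 CPM, median 1.35). Of the 7 Btnl2-KO libraries, 6 held no read, where a count of 0 allows up to 0.175 to 0.261 CPM (3 reads per library), and Btnl2-KO 1 held 1 read (0.0461 CPM). The groups did not overlap. With 1 read in all against 170, Btnl2 was 175-fold lower in Btnl2-KO colon (95% exact interval from counting error, 31.0 to 6957), and edgeR gave an FDR of 0.000179. The fitted log2 fold change was -6.61 ± 0.58 (SE), -6.54 without Btnl2-KO 2 and -6.33 without the 4 libraries highest in Hoxd13, with no bound implied since most Btnl2-KO libraries are at 0. The labels of all 13 libraries thus matched their Btnl2 reads.

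Btnl1, the neighbour of Btnl2 and the partner of Btnl6 on epithelial cells, fell in Btnl2-KO colon. It was at 1.24 to 5.89 CPM in the 7 Btnl2-KO libraries (median 1.99) and at 15.7 to 43.6 CPM in the 6 WT libraries (median 25.5). The highest Btnl2-KO library, Btnl2-KO 4, was below the lowest WT library, WT 5. The log2 fold change was -3.14 ± 0.36 (SE), an 8.83-fold difference, with an FDR of 0.00163 by edgeR. Without Btnl2-KO 2 it was -3.05, and without the 4 libraries highest in Hoxd13 it was -2.82.

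The other butyrophilin-like genes of the locus that were tested, Btnl6 and Btnl4, were not called in colon. Btnl6 was at 27.3 to 52.3 CPM in Btnl2-KO colon (median 47.2) and at 37.8 to 50.2 CPM in WT colon (median 44.7). Its log2 fold change of -0.04 ± 0.14 (SE) turned to 0.0333 without Btnl2-KO 2. Btnl4 was at 16.8 to 36.0 CPM (median 32.5) against 29.0 to 39.1 CPM (median 34.3), and its log2 fold change was -0.18 ± 0.15 (SE), or 0.0211 without the 4 libraries highest in Hoxd13. The FDR was 0.988 for Btnl6 and 0.972 for Btnl4 by edgeR. In small intestine, their log2 fold changes were 0.83 for Btnl6 and 0.63 for Btnl4. The unadjusted p-values there were 0.00245 and 0.00395 by edgeR (11.9% of all genes were higher at p below 0.05), and neither was called (FDR 0.113 and 0.116). The difference between colon and small intestine was not called for either gene (FDR 0.307 for both by edgeR). Whether reads that fit both genes were split between them was not tested, so their separate levels are uncertain.

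**Figure D1:**
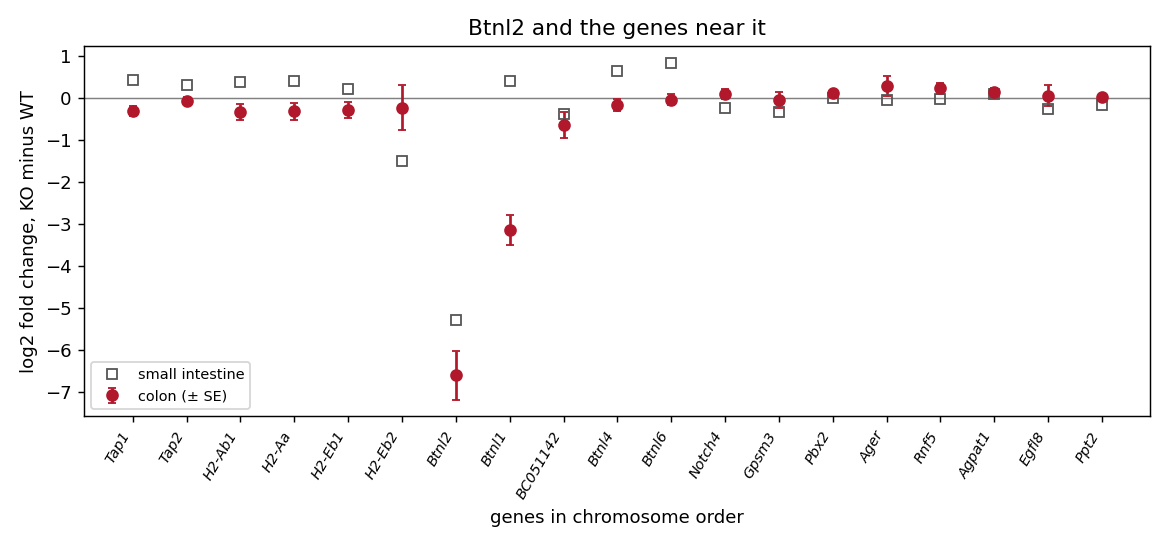
Log2 fold change (Btnl2-KO minus WT) of Btnl2 and of 18 tested genes near it, in chromosome order, in colon (filled, ± SE) and small intestine (open squares, no error drawn). Btnl2 was far below 0 in both tissues, whereas Btnl1 was at -3.14 in colon and 0.39 in small intestine.

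Of 18 tested neighbours of Btnl2, 1 was called (Btnl1, against 0.0134% of all genes called lower), 2 were lower at an unadjusted p below 0.05 (Btnl1 and Tap1, against 2.7% of all genes), none was higher, and the median log2 fold change was -0.06 (0.01 for all genes). Tap1, a subunit of the peptide transporter for MHC class I, was at 19.9 to 24.5 CPM in Btnl2-KO colon and at 20.8 to 35.2 CPM in WT colon, with an FDR of 0.972 by edgeR. BC051142, the next tested gene after Btnl1, was at 0.369 to 1.22 against 0.578 to 1.26 CPM, and its log2 fold change was -0.65 ± 0.31 (SE), FDR 0.972. The MHC class II genes on the other side of Btnl2 overlapped between genotypes, as H2-Ab1 did at 42.1 to 98.7 against 58.7 to 100.3 CPM.

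4930463O16Rik, a long noncoding RNA, rose most. It was at 7.37 to 30.6 CPM in Btnl2-KO colon (median 11.1) and at 0.608 to 1.24 CPM in WT colon (median 0.830). All 7 Btnl2-KO libraries were above all 6 WT libraries, and Btnl2-KO 2 was the highest of all. The log2 fold change was 3.91 ± 0.36 (SE), a 15.0-fold difference (FDR 0.000179, edgeR), 3.56 without Btnl2-KO 2 and 3.40 without the 4 libraries highest in Hoxd13.

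Igf2bp3 encodes an RNA-binding protein that is abundant in fetal tissues and low in most adult ones. It was at 29.0 to 86.9 CPM in Btnl2-KO colon (median 31.6) and at 9.51 to 14.6 CPM in WT colon (median 11.8). The groups did not overlap, and Btnl2-KO 2 again held the highest value. The log2 fold change was 1.72 ± 0.26 (SE), a 3.30-fold difference, with an FDR of 0.0292 by edgeR. Its call was lost when Btnl2-KO 3, Btnl2-KO 5 or any 1 of the 6 WT libraries was left out (FDR 0.0617 to 0.159), and the log2 fold change stayed between 1.40 and 1.78 over all 13 such fits. Without Btnl2-KO 2 it was 1.40 with an FDR of 7.20e-05, and without the 4 libraries highest in Hoxd13 it was 1.31 with an FDR of 0.00404.

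Of these 4 genes, 3 differed between colon and small intestine in their response to genotype, and no other gene of 15540 did at an FDR below 0.05 for the interaction in edgeR (1 lower in colon, 0.00644%, and 2 higher, 0.0129%). In the fit over all 27 tissue libraries, Btnl1 was at 120.3 to 262 CPM in Btnl2-KO small intestine (median 152) and at 60.6 to 168 CPM in WT small intestine (median 130.1). Those ranges overlapped, and the effect in colon minus that in small intestine was -3.52 ± 0.42 (SE) on the log2 scale, with an FDR of 5.07e-05.

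Igf2bp3 was at 10.2 to 14.8 CPM in Btnl2-KO and 11.4 to 55.9 CPM in WT small intestine, and the effects differed by 2.61 ± 0.43 (SE, FDR 0.00908). 4930463O16Rik was at 0.372 to 1.31 CPM in Btnl2-KO and 0.938 to 4.83 CPM in WT small intestine, and the effects differed by 5.02 ± 0.54 (SE, FDR 1.06e-05). Both genes were lower in Btnl2-KO small intestine, where the ranges overlapped. The log2 fold changes were -0.87 ± 0.31 for Igf2bp3 (SE, FDR 0.142) and -1.09 ± 0.37 for 4930463O16Rik (SE, FDR 0.134). Neither was called by edgeR, with unadjusted p-values of 0.0126 and 0.00954 in its fit (11.1% of all genes were lower at p below 0.05). The directions of the fitted effects in the 2 tissues were thus opposite. WT small intestine 5 and 1 were highest, at 55.9 and 31.2 CPM for Igf2bp3 and 4.83 and 2.43 CPM for 4930463O16Rik. Every other small intestine library was at most at 18.6 and 2.27 CPM. No fit left out a small intestine library. The part of WT small intestine 5 and 1 in these effects was not tested. Without Btnl2-KO 2 the differences between tissues were -3.43 for Btnl1, 2.29 for Igf2bp3 and 4.66 for 4930463O16Rik, all called. Without the 4 libraries highest in Hoxd13 they were -3.20, 2.21 and 4.50, and that of Igf2bp3 was no longer called (FDR 0.107). Btnl2 itself was at 0.669 to 2.46 CPM in Btnl2-KO and at 24.0 to 104 CPM in WT small intestine, and its interaction was not called (FDR 0.608). Btnl2-KO and WT small intestine did not overlap for Btnl2. The labels do not say whether libraries of both tissues came from the same mice.

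**Figure D2:**
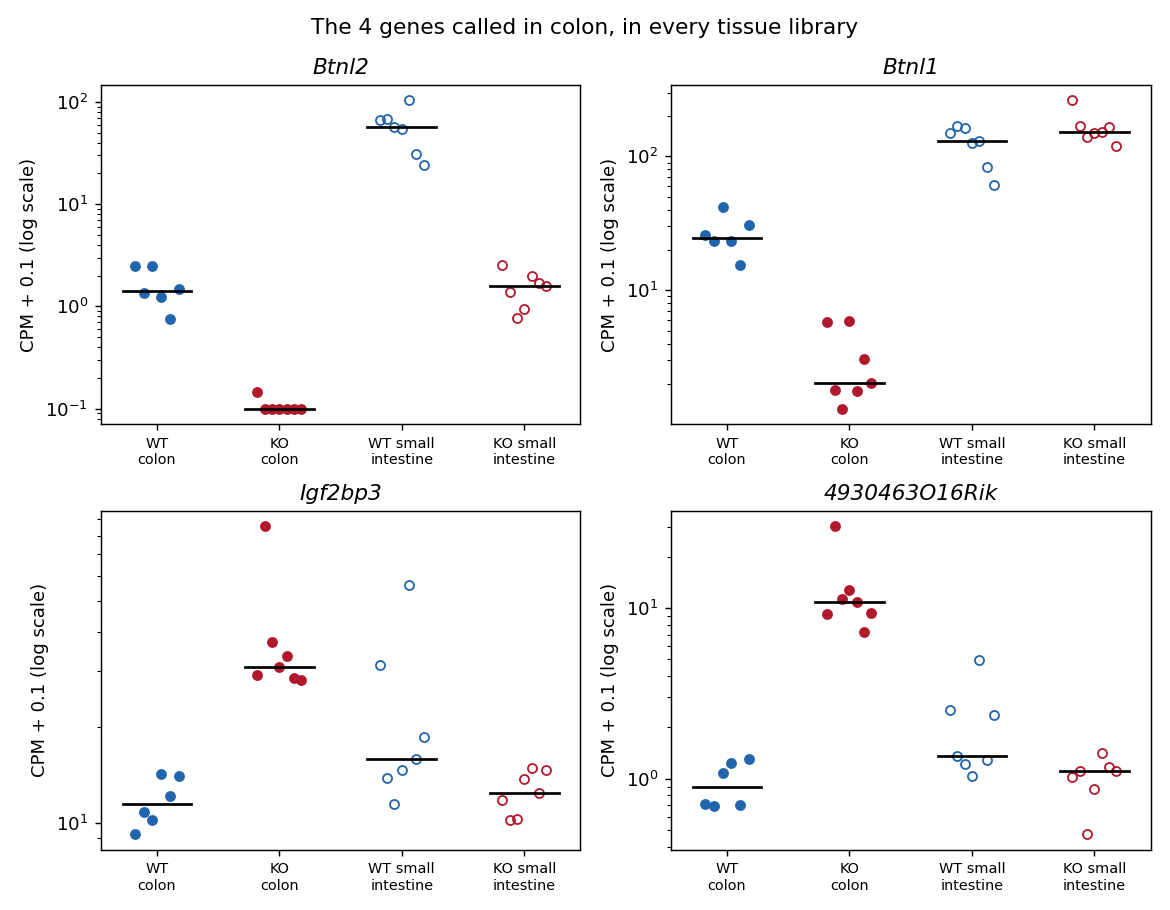
CPM plus 0.1 on a log scale for the 4 called genes in WT (blue) and Btnl2-KO (red) libraries of colon (filled) and small intestine (open), from the fit over 27 libraries, with bars at medians. Btnl1, Igf2bp3 and 4930463O16Rik separate the genotypes in colon and overlap in small intestine, while Btnl2 separates them in both.

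Separation of the libraries beyond the called genes was searched next. All 7 Btnl2-KO libraries were below all 6 WT libraries for 26 genes (0.175% of the genes tested) and above them for 7 (0.0471%). Besides Btnl2 and Btnl1, the 10 lower ones with the smallest p were Lrrc4c, Hand2os1, Fam155a, Prph, Rrad, Gap43, Penk, Carmil3, Myom1 and Podxl2. None was called by edgeR, with FDRs from 0.287 to 0.874 and log2 fold changes from -1.08 to -0.49.

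Several of these are known as genes of nerve cells. Lrrc4c, a synaptic adhesion molecule, was at 0.608 to 1.53 CPM in Btnl2-KO colon (median 0.922) and at 1.82 to 3.05 CPM in WT colon (median 2.02). Its log2 fold change was -1.08 ± 0.20 (SE, FDR 0.287), and it was called by DESeq2 (FDR 0.00816), by limma-voom with sample weights (0.0467) and in the fit over 27 libraries (0.0113). Prph, the neurofilament protein of peripheral and enteric neurons, was at 4.18 to 8.51 CPM (median 5.69) against 8.64 to 11.6 CPM (median 9.60), with a log2 fold change of -0.77 ± 0.16 (SE, FDR 0.386 by edgeR, 0.00750 by DESeq2 and 0.0467 by limma-voom).

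The others had smaller differences. Fam155a, which encodes a subunit of the NALCN sodium channel, was at 1.12 to 1.80 against 1.92 to 2.76 CPM, a log2 fold change of -0.73 ± 0.15 (SE, FDR 0.360). Gap43, a protein of growing axons, was at 2.43 to 3.73 against 3.87 to 5.38 CPM (-0.58 ± 0.13). Penk, which encodes the precursor of enkephalins, was at 3.49 to 6.18 against 6.47 to 9.41 CPM (-0.59 ± 0.15). These levels are low, at a few CPM, and the gaps between the groups were narrow for each of them.

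Hand2os1, a noncoding RNA beside the gene of the neuronal and mesenchymal factor Hand2, was at 0.955 to 1.61 against 1.74 to 2.47 CPM. Myom1, a sarcomere protein, was at 24.0 to 48.8 against 48.9 to 59.4 CPM. Rrad, a small GTPase that binds calcium channels, was at 1.59 to 2.26 against 2.32 to 4.45 CPM. Carmil3 (1.22 to 1.87 against 1.93 to 2.70 CPM) and Podxl2 (0.887 to 1.78 against 1.86 to 2.31 CPM) made up the rest.

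DESeq2, which the study used, called 6 genes lower and 4 higher. Beyond the 4 genes called by edgeR these were Lrrc4c, Prph, Dpp6 and Defa2 (lower) and Rpph1 and Rmrp (higher). Dpp6, a subunit of neuronal potassium channels, was at 1.22 to 2.98 CPM in Btnl2-KO and 2.89 to 4.13 CPM in WT colon (log2 fold change -0.85 ± 0.19, FDR 0.622 by edgeR). Defa2, an α-defensin gene of a family of near-identical copies whose separate levels are uncertain, was at 0 to 2.17 CPM in Btnl2-KO colon, with Btnl2-KO 2 highest, and at 0.553 to 3.09 CPM in WT colon, which overlapped (FDR 0.972 by edgeR).

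The 5 genes above all WT libraries and not called were Rpph1, Micalcl, Fam118b, ND5 and Csnk2a1. Rpph1 and Rmrp are the RNA components of RNase P and RNase MRP, short transcripts without a poly(A) tail. Rpph1 was at 2.51 to 13.3 CPM in Btnl2-KO colon (median 3.51) and at 0.985 to 1.88 CPM in WT colon (median 1.49), with a log2 fold change of 2.17 ± 0.45 (SE, FDR 0.360 by edgeR). Rmrp was at 1.70 to 9.71 against 0.978 to 2.16 CPM, which overlapped. Both were highest in Btnl2-KO 2, 3 and 5, which are also high in Hoxd13, whereas WT 5, the other library high in Hoxd13, was at 1.38 CPM for Rpph1 and held the lowest Rmrp level of all, 0.978 CPM. Since Rpph1 did not overlap between genotypes, its level and the genotype cannot be told apart in the other results.

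Micalcl was at 20.8 to 26.4 against 14.5 to 20.7 CPM, and Fam118b at 25.2 to 35.1 against 21.5 to 24.8 CPM. ND5, a mitochondrially encoded subunit of complex I, was at 3457 to 7387 against 2829.7 to 3200.03 CPM, with the highest value again in Btnl2-KO 2. Csnk2a1, a catalytic subunit of casein kinase II, was at 199.1 to 209.6 against 179 to 199.08 CPM, a log2 fold change of 0.09. All 4 had an FDR of 0.972 by edgeR.

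The enteric nervous system lies in the muscle and submucosa of the colon, where neurons and glia form plexuses that drive motility and secretion. Of the 12 genes of a list of enteric neuron markers, all 12 were tested and all 12 had a lower mean in Btnl2-KO colon. None was called by edgeR (lowest FDR 0.386), and 10 had an unadjusted p below 0.05, where 2.7% of all genes did in that direction. Their median log2 fold change was -0.48 (0.01 for all genes). The genes mark the same cell type and were measured in the same libraries, so they are not independent of each other. Their list was chosen with earlier results of these data known. DESeq2 called Prph of the 12 and gave the same count at an unadjusted p below 0.05 (445 of all 14871 genes were lower at that p). Limma-voom gave 11, with 780 of all 14871 genes lower at that p.

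Nos1, which makes nitric oxide in the inhibitory motor neurons, was at 5.64 to 22.5 CPM in Btnl2-KO colon (median 11.3) and at 16.3 to 27.7 CPM in WT colon (median 22.0). Its log2 fold change was -0.78 ± 0.27 (SE, FDR 0.972). Below the lowest WT library were 5 of the 7 Btnl2-KO libraries, and the groups overlapped.

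Vip, the most abundant gene of the list, encodes a secretomotor peptide and was at 9.99 to 27.5 CPM (median 14.8) against 19.4 to 30.8 CPM (median 26.2). Uchl1, a pan-neuronal hydrolase of ubiquitin, was at 6.92 to 12.0 CPM (median 8.59) against 10.3 to 15.1 CPM (median 12.6). Their log2 fold changes were -0.48 ± 0.20 and -0.48 ± 0.14 (SE), each with an FDR of 0.972 by edgeR. Synaptic genes were similar, with Syt1 at -0.57 ± 0.21 and Snap25 at -0.45 ± 0.17. Ret, the receptor that guides enteric neuron precursors, was at -0.48 ± 0.20, Elavl4 at -0.46 ± 0.18 and Tubb3 at -0.45 ± 0.21. Stmn2 (-0.11 ± 0.21) and Elavl3 (-0.30 ± 0.16) were the members with an unadjusted p above 0.05.

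**Figure D3:**
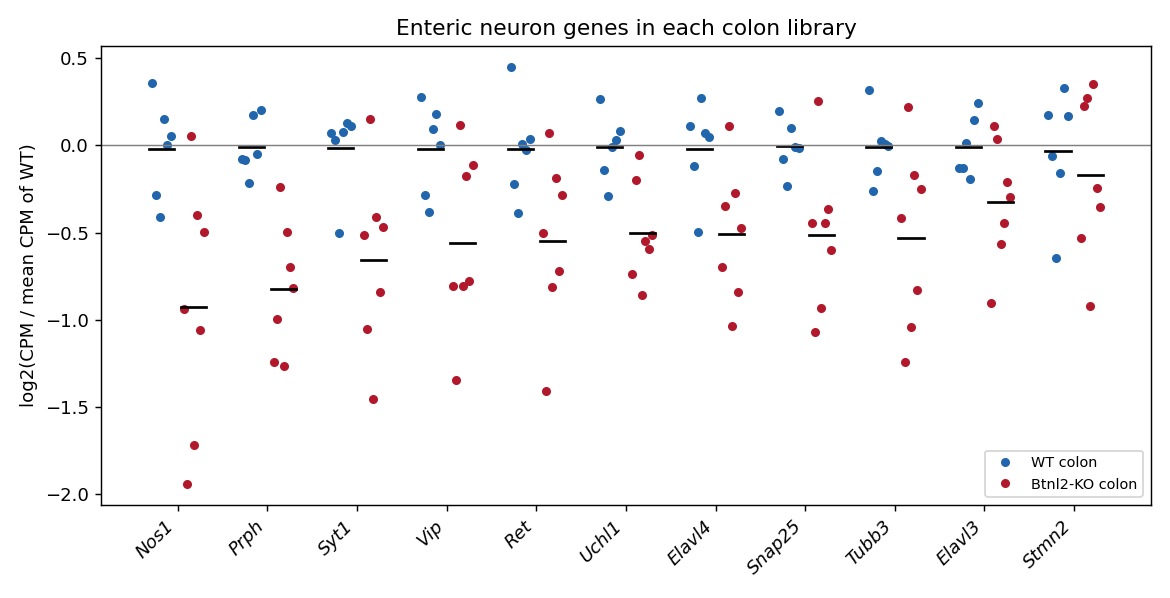
Log2 ratio of CPM to the mean CPM of WT colon for 11 of the enteric neuron genes in each WT (blue) and Btnl2-KO (red) colon library, with bars at the mean of the log2 ratios. Btnl2-KO points sit lower at an unadjusted p below 0.05 for 9 of the 11 genes drawn, of which only Prph has no overlap.

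Summed over the list, enteric neuron genes were at 66.5 to 148 CPM in Btnl2-KO colon (median 85.6) and at 108 to 161 CPM in WT colon (median 144). In 5 of the 7 Btnl2-KO libraries the sum was below the lowest WT library, and Btnl2-KO 3 and 5 were within the WT range. Without Btnl2-KO 2 the count at an unadjusted p below 0.05 was 10 again (514 of all 14846 genes) and the median -0.44. Without the 4 libraries highest in Hoxd13 the count was 12 (566 of all 14940 genes) and the median -0.64. Beside them, all 13 genes of the smooth muscle that surrounds the neurons had a lower mean in Btnl2-KO colon, with a median of -0.23, but none had an unadjusted p below 0.05 or a call by edgeR or DESeq2. Their sum was at 3875 to 9481 CPM in Btnl2-KO (median 5188) and at 6052 to 8560 CPM in WT colon (median 7312), and 4 Btnl2-KO libraries were below and 1 above the WT range.

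With the mean level of smooth muscle genes as a covariate, 5 neuron genes, all among the 10, had an unadjusted p below 0.05. Of all 14871 genes, 352 were lower at that p, and the median of the neuron genes was -0.33. Smooth muscle markers Myh11, the myosin heavy chain, at 493 to 2106 against 1497 to 2008 CPM, Acta2, the actin of smooth muscle, at 593 to 1345 against 917 to 1215 CPM, Mylk, the kinase that starts contraction (-0.23 ± 0.12), and Smtn (-0.23 ± 0.15) overlapped between genotypes. The part of the amount of muscle in the neuron values was not tested further.

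Enteric glia, the support cells of the plexus, showed smaller differences. All 7 genes of the list had a lower mean in Btnl2-KO colon, 2 at an unadjusted p below 0.05 (2.7% of all genes), none was called by edgeR or DESeq2, and the median was -0.30. Sox10, the factor of enteric glia and their precursors, was at 2.30 to 3.39 against 3.02 to 4.71 CPM (-0.40 ± 0.14), and S100b at 1.38 to 3.39 against 2.13 to 3.15 CPM (-0.46 ± 0.21). Erbb3, the most abundant gene of the list and also made by epithelial cells, was at 89.8 to 222 against 174 to 252 CPM (-0.21 ± 0.17). The FDR was 0.972 for each by edgeR.

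In small intestine, 10 of the 12 neuron genes were lower in the Btnl2-KO group at an unadjusted p below 0.05, as were 11.1% of all genes. The median there was -0.40 (-0.03 for all genes), the lowest FDR was 0.0942 by edgeR, and none of the 12 had an interaction with an unadjusted p below 0.05, which 12.9% of all genes had. Smooth muscle genes had a median of -0.31 in small intestine, with 3 of 13 lower at an unadjusted p below 0.05.

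IELs were looked at because Btnl1, the gene that fell, belongs to the pair that upholds them in the gut. The transcripts of the γδ T cell receptor were not analysed here. Of the 15 genes on the list, 12 were found by symbol, and 6 of these passed the filter on low counts. All 6 were at 0.222 to 5.80 CPM, so the depth behind each is low. All 6 had a lower mean in Btnl2-KO colon with a median of -0.45, which was -0.39 without Btnl2-KO 2 and -0.21 without the 4 libraries highest in Hoxd13. None was called by edgeR or DESeq2, and 1 had an unadjusted p below 0.05 (2.7% of all genes).

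That gene, Cd244a, a receptor of cytotoxic lymphocytes, was at 0.521 to 1.64 CPM in Btnl2-KO (median 0.883) and at 1.38 to 2.82 CPM in WT colon (median 1.53), a log2 fold change of -0.72 ± 0.26. Ccl5, a chemokine that IELs hold in store, was at -0.60 ± 0.29, and Klrd1, a chain of NK receptors, at -0.49 ± 0.29. Itgae, the integrin chain that holds IELs to epithelium and the most abundant of the list, was at 2.66 to 5.41 against 2.82 to 5.80 CPM (-0.22 ± 0.20). The FDR was 0.972 for each by edgeR, and the groups overlapped for all 6. Summed, the list was at 7.00 to 14.7 CPM in Btnl2-KO (median 9.07) and at 8.76 to 15.9 CPM in WT colon (median 13.5).

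In small intestine the median of these 6 genes was 0.24, above 0, and 2 were higher at an unadjusted p below 0.05 (11.9% of all genes were). For 3 of the 6, Cd244a, Cd8a and Itgae, the interaction had an unadjusted p below 0.05 (12.9% of all genes), none with an FDR below 0.307. A difference between the tissues was therefore not called for any IEL gene.

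Interferon gamma, which IELs and other lymphocytes release, induces a set of GTPases, chemokines and MHC genes in epithelium. A list of 20 genes that it induces held GTPases, chemokines and the transcription factor Irf1. In Btnl2-KO colon 19 of them had a lower mean, and Irf1 was the other. At an unadjusted p below 0.05, 3 were lower (Tgtp1, Cxcl9 and Gbp5, against 2.7% of all genes). None was called by edgeR or DESeq2, and the median was -0.27. That median was also -0.27 without Btnl2-KO 2 and -0.20 without the 4 libraries highest in Hoxd13. Tgtp1, a GTPase of a family with near-identical copies, was at 1.39 to 3.49 against 2.10 to 8.17 CPM (-0.91 ± 0.27). Cxcl9, a T cell attractant, was at 0.235 to 1.47 against 0.578 to 2.75 CPM (-1.08 ± 0.43). Gbp5, a guanylate-binding protein, was at 3.13 to 4.86 against 3.78 to 7.90 CPM (-0.40 ± 0.17).

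Irf1, the most abundant of these, was at 81.3 to 173 against 97.9 to 149 CPM, and its log2 fold change of 0.04 ± 0.15 turned to -0.0453 without Btnl2-KO 2. Of 10 genes of MHC class II presentation, 9 had a lower mean in Btnl2-KO colon and the median was -0.29, but none had an unadjusted p below 0.05 or a call by edgeR or DESeq2. The 3 with the smallest p were H2-Ab1 (-0.33 ± 0.19), H2-Aa (-0.32 ± 0.21) and H2-Eb1 (-0.30 ± 0.20), all chains of the class II molecules. Cd74, their invariant chain, was at 113 to 304 CPM in Btnl2-KO and at 153 to 289 CPM in WT colon.

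Of 12 genes of MHC class I presentation, Tap1 alone had an unadjusted p below 0.05 (2.7% of all genes were lower at that p). The median was -0.09 for the list and 0.01 for all genes. Nlrc5, the activator of class I genes, was at -0.43 ± 0.29, H2-M3 at -0.17 ± 0.15, and H2-K1, the most abundant, at 525 to 782 against 528 to 652 CPM (0.09 ± 0.09). Of 32 antiviral genes that type I interferon induces, 18 had a lower and 14 a higher mean and none an unadjusted p below 0.05, with a median of -0.05. The sums of the interferon gamma and class II lists overlapped between genotypes, at 282 to 362 against 286 to 491 CPM and at 263 to 681 against 365 to 671 CPM.

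**Figure D4:**
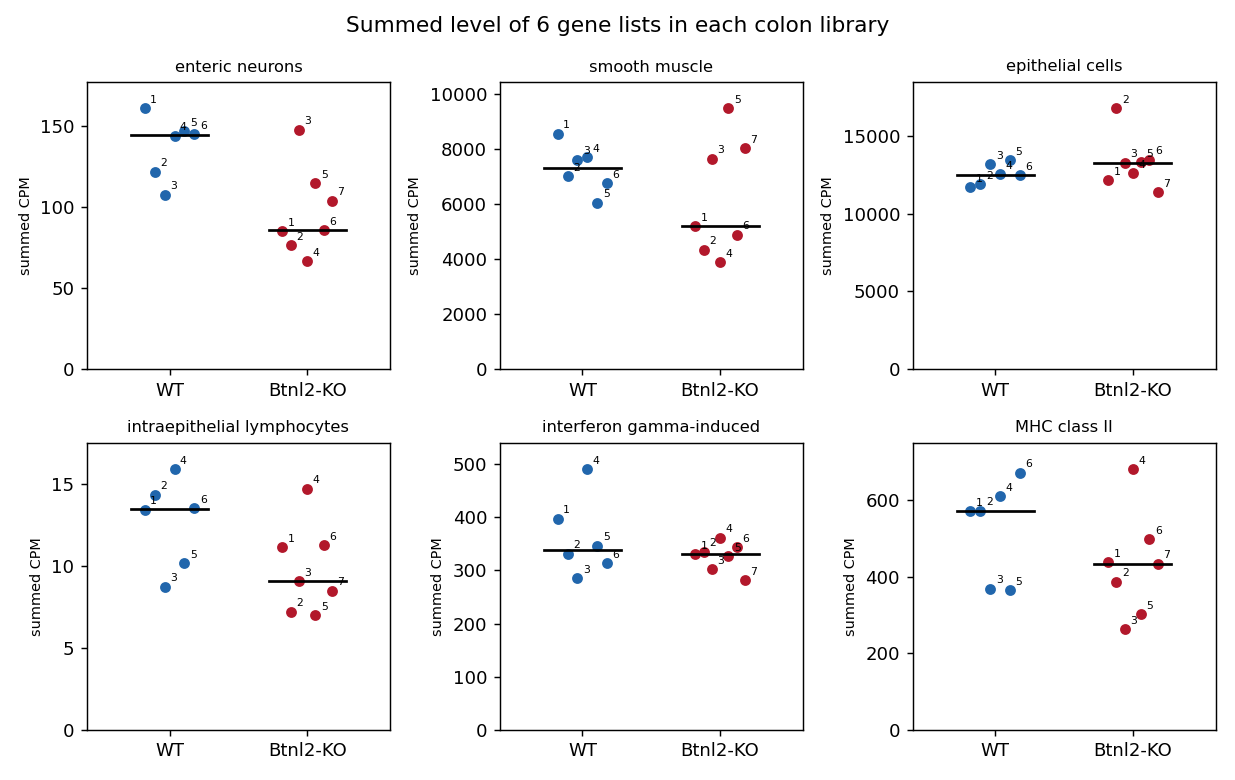
Summed CPM of 6 gene lists in each WT (blue) and Btnl2-KO (red) colon library, numbered by replicate, with bars at medians and axes from 0. Enteric neuron sums are below the lowest WT library in 5 of 7 Btnl2-KO libraries, and fewer are below it for each other list drawn. Colonocyte sums, not drawn, were above the highest WT library in 5 of 7 Btnl2-KO libraries.

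Epithelial programs held no called gene. The 12 pan-epithelial genes had a median log2 fold change of 0.08, the 18 tested colonocyte genes 0.10, the 12 goblet cell genes 0.20, the 13 stem cell genes -0.04 and 24 genes of epithelial differentiation -0.03. None of their members was called by edgeR or DESeq2 or had an unadjusted p below 0.05. The same held for 15 tight junction genes (median 0.01) and 20 genes of ion and water transport (0.01). The goblet cell median turned to -0.12 without Btnl2-KO 7, whose summed goblet cell genes were at 87661 CPM against 15052 to 33589 CPM in the other Btnl2-KO libraries and 19724 to 45316 CPM in WT colon. The pan-epithelial median was -0.00178 without Btnl2-KO 2. Pan-epithelial sums were at 11380 to 16795 CPM in Btnl2-KO, with Btnl2-KO 2 highest, and at 11722 to 13467 CPM in WT colon. Colonocyte sums were at 10270 to 16128 CPM in Btnl2-KO and at 10187 to 11914 CPM in WT colon, with 5 Btnl2-KO libraries above the highest WT library. Sums of the differentiation genes were at 3624 to 4100 CPM against 3534 to 3773 CPM, with 4 Btnl2-KO libraries above the highest WT library.

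Over all 52 lists, 40 had no member with an unadjusted p below 0.05. Outside those above, the lists with 1 such member were enteroendocrine cells, lymphoid follicles, cytokines, immediate early genes and hypoxia genes. The member was lower in the first 2 of these lists and higher in the others. Of all genes, 2.7% were lower and 1.44% higher at that p. Scgn, a calcium sensor of enteroendocrine cells, was at 3.40 to 4.78 against 3.84 to 6.62 CPM (-0.37 ± 0.14). Ccl21a, a chemokine of lymphatics and follicles, was at 30.7 to 58.1 against 34.7 to 78.0 CPM (-0.45 ± 0.18).

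Tnf, the inflammatory cytokine, was at 0.994 to 2.67 CPM in Btnl2-KO (median 1.77) and at 0.667 to 1.30 CPM in WT colon (median 1.02), a log2 fold change of 0.83 ± 0.27. Btg2, an early response gene, was at 0.32 ± 0.13, and Slc2a1, the glucose transporter that hypoxia induces, at 0.14 ± 0.06. None was called (FDR 0.972 for each by edgeR). Macrophage and monocyte genes (15 tested, median -0.06), T cell genes (9 tested, -0.19), B cell genes (9 tested, -0.17) and fibroblast genes (10 tested, -0.01) held no member with an unadjusted p below 0.05.

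**Figure D5:**
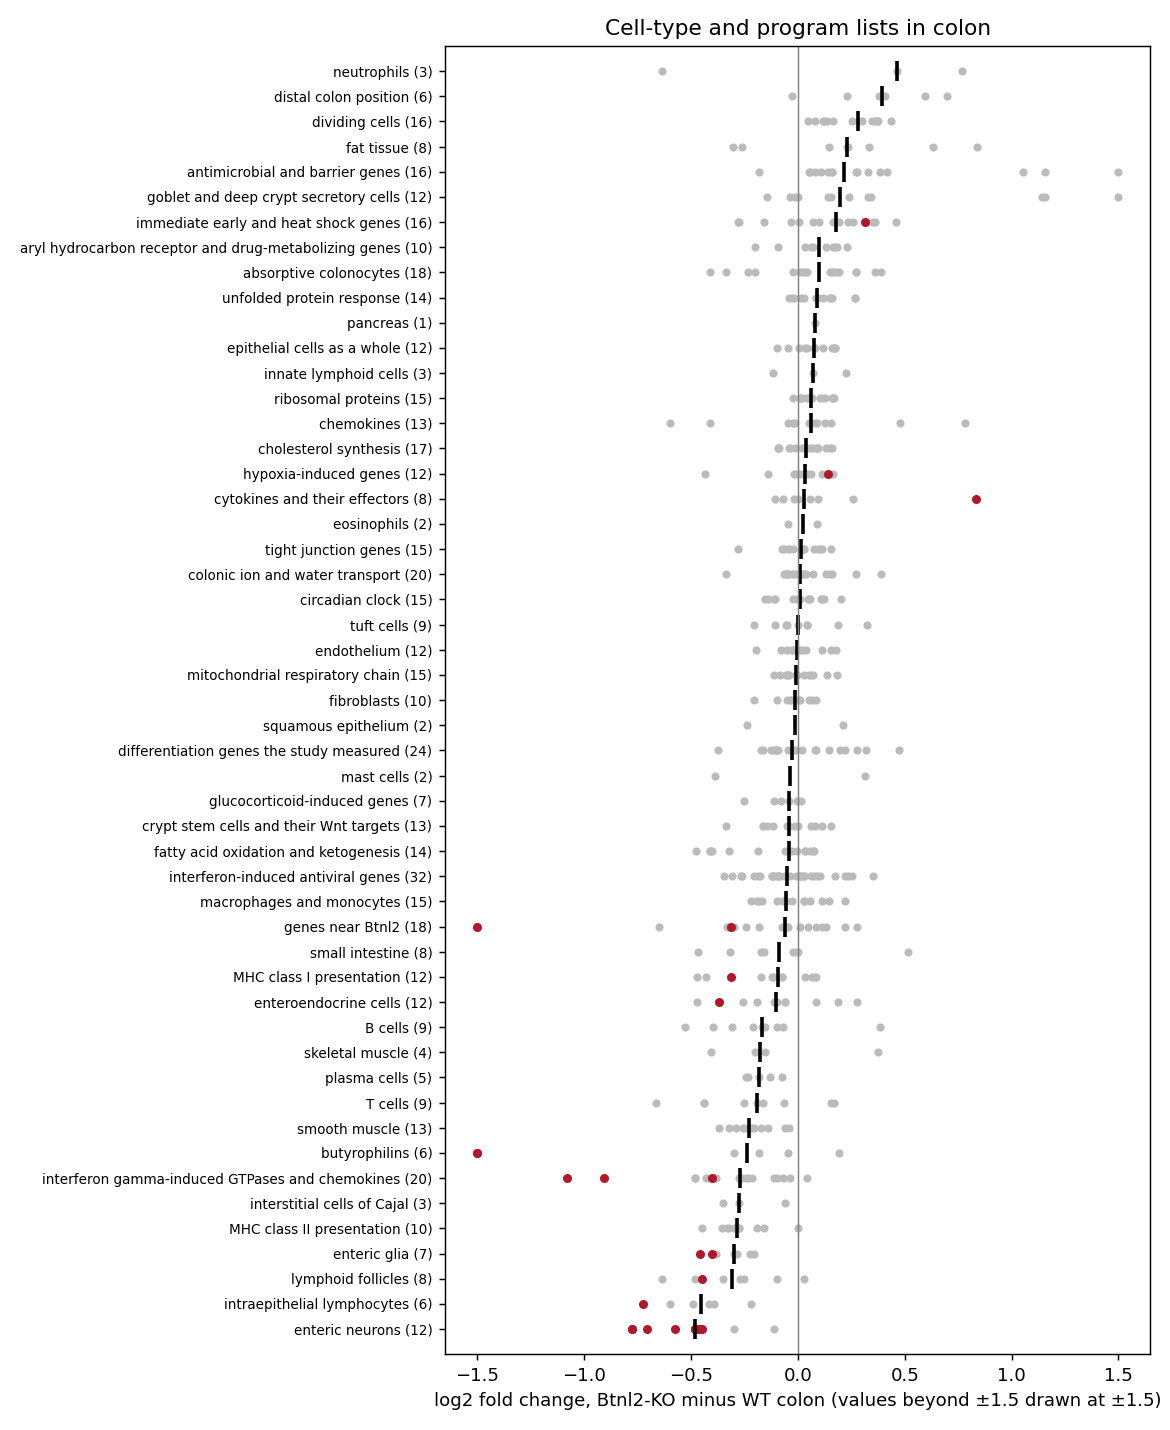
Log2 fold change (Btnl2-KO minus WT colon) of each tested member of 51 gene lists, with the number tested in parentheses, members with an unadjusted p below 0.05 in red and bars at list medians. Enteric neurons have the lowest median, -0.48, and values beyond 1.5 in either direction, such as Btnl1 and Btnl2, are drawn at 1.5.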

How the data were processed

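Whole colon tissue was profiled by bulk RNA sequencing. The authors aligned reads in ArrayStudio against a customized mouse genome (the submitters' processing notes give GRCm38) and estimated reads on the sense strand of exons with RSEM. The deposited values are expected counts, neither normalized nor rounded (17.3% of the colon values were not whole), and were rounded here. Of 24475 gene identifiers, 24375 matched a RefSeq symbol (GRCm38.p6) and the other 100, with 1.29 to 2.55% of the counts of a library, were kept.

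Genes with at least 10 counts in at least 6 colon libraries entered a fit of the 13 colon libraries in edgeR 4.0.16 under R 4.3.3, with TMM scaling and the quasi-likelihood test. Called genes had an FDR (Benjamini-Hochberg) under 0.05 and more than a 1.5-fold difference. The F statistic gave the standard errors. CPM were computed over the tested genes and scaled by TMM factors. Colon and small intestine effects were compared by an interaction term over 27 libraries. All 36 pairs of replicates differed by more than counting noise (lowest chi-square per degree of freedom, 4.50). The pipeline was tested on simulated data. DESeq2 1.42.0, limma 3.58.1 (voom) and other filters, scalings, covariates and left-out libraries were tried. The other processed files hold no colon library and were not used. The members and gene lists were chosen with earlier results of these data known. Genes were named by rule: Btnl2, the called genes, up to 10 genes per direction with the smallest p among those whose libraries did not overlap, and for each list described at gene level its called members, the 3 with the smallest p and the most abundant one. Tnf, Ccl21a, Scgn, Btg2, Slc2a1, Nos1, Rmrp, Dpp6, Defa2, Mapk8ip2, Btnl4, Btnl6, Hoxd13, Rnaset2a, Rnaset2b, Tdg and Tdg-ps2 were chosen after their values were seen. Some list members count in the list totals and are not reported here by name. Sequences are RefSeq promoter windows of GRCm38.p6.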

Additional observations from a re-analysis of the deposited data

Results flagged for a closer look

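Among 48 groups examined (24 genes or list sums in each genotype), 6 held a library whose gap to the nearest other library was large for its group. The cutoff is passed by about 1 in 20 groups of independent, normally distributed values. CPM need not be so distributed, the items were chosen with the data known, and several flags fall on the same library. The number of flags is therefore not compared with chance. Btnl2-KO 2 was the highest library for Igf2bp3 at 86.9 CPM, for 4930463O16Rik at 30.6 CPM and for the summed pan-epithelial genes at 16795 CPM. The single Btnl2 read of Btnl2-KO 1 put that library at 0.0461 CPM, and the rule flags any lone read when the other 6 libraries are at 0. WT 1 was far above the other WT libraries for Lrrc4c at 3.05 CPM, and WT 4 for Cd244a at 2.82 CPM.

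For 3 genes the effect of genotype differed between colon and small intestine by the interaction test of edgeR, given as the log2 effect in colon minus that in small intestine. It was 5.02 for 4930463O16Rik, -3.52 for Btnl1 and 2.61 for Igf2bp3.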

How the results depend on the processing

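Called genes, 2 lower and 2 higher, were counted again under other settings. DESeq2 called 6 lower and 4 higher, limma-voom with sample weights 5 lower (Defa2, Lrrc4c and Prph besides), and the fit over 27 tissue libraries 4 lower (Lrrc4c and Mapk8ip2 besides). The distal colon position covariate gave 3 lower (Prph besides, FDR 0.0249 by edgeR) and 11 enteric neuron genes with an unadjusted p below 0.05 (497 of all 14871 genes were lower). The epithelial covariate gave 2 lower and 8 such neuron genes (360 of all 14871 genes). The smooth muscle covariate left 1 higher gene and 5 enteric neuron genes with an unadjusted p below 0.05 (352 of all 14871 genes were lower). Over the 13 fits with a library left out, 2 to 3 genes were lower (Defa2 besides without Btnl2-KO 2) and 1 to 2 higher (Igf2bp3 lost). In these fits 7 to 11 neuron genes had an unadjusted p below 0.05, where 293 to 571 of all genes were lower. A fit with Rpph1 as a covariate and 1 without the 4 libraries highest in Hoxd13 were added after the data were seen. Rpph1 does not overlap between genotypes, so its level and genotype cannot be told apart in that fit, which left 0 genes lower and 1 higher by edgeR (617 and 838 at an unadjusted p below 0.05), and the log2 fold change of Btnl2 was -4.71, no longer called. Interaction calls rose from 3 to 19 with DESeq2 and to 9 with limma-voom, and were 4 without Btnl2-KO 2 and 3 without the 4 libraries highest in Hoxd13 (Defa2 besides in both, Igf2bp3 lost in the second), fits also added after the data were seen. Apart from the Rpph1 fit, Btnl2, Btnl1 and 4930463O16Rik were called in every fit run. Among genes not called, signs turned for Btnl6 (0.0363 with limma-voom, 0.00215 with the epithelial covariate, -0.0946 to 0.0333 with a library left out), Btnl4 (0.0211 without the 4 libraries highest in Hoxd13) and Irf1 (-0.0695 with limma-voom, -0.0670 with the smooth muscle covariate, -0.105 with the epithelial covariate, -0.0204 without the 4 libraries highest in Hoxd13, -0.0453 to 0.132 with a library left out). The cause of these moves was not tested. No paired analysis was possible because the labels give the groups no shared replicate numbers. Genes at a few CPM carry a large counting error at this depth.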

Other observations

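Other gene groups leaned one way in colon without any member passing a test there. All 16 genes of dividing cells had a higher mean in Btnl2-KO colon, with a median log2 fold change of 0.28 (0.24 without Btnl2-KO 2 and 0.14 without the 4 libraries highest in Hoxd13), and their sums overlapped at 663 to 1025 CPM against 524 to 1030 CPM in WT colon. Of 16 antimicrobial and barrier genes, 15 had a higher mean (median 0.22, but -0.02 with limma-voom and 0.11 without Btnl2-KO 7). Of 15 ribosomal protein genes 14 did (median 0.06), but the median turned to -0.08 without Btnl2-KO 2, whose summed ribosomal protein genes were at 14102 CPM against 7443 to 9139 CPM in the other Btnl2-KO libraries. The 5 tested plasma cell genes all had a lower mean (median -0.18), and the median turned to 0.28 without the 4 libraries highest in Hoxd13. In colon, no gene of these lists was called by edgeR or DESeq2 or had an unadjusted p below 0.05. In small intestine the dividing cell genes had a median of -0.24, and 4 of 16 were lower at an unadjusted p below 0.05 (11.1% of all genes). For 7 of the 16 the interaction had an unadjusted p below 0.05 (12.9% of all genes), with a lowest FDR of 0.323 by edgeR.

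Near-identical gene copies had opposite levels between libraries of the same genotype. Rnaset2b was at 111 to 141 CPM in WT 3, 4 and 5 and at 11.1 to 30.0 CPM in the other 10 libraries, while Rnaset2a was at 24.9 to 35.2 CPM in those 3 and at 92.4 to 155 CPM in the others. Tdg was at 63.0 and 55.5 CPM in Btnl2-KO 1 and 2 and at most 9.73 CPM elsewhere, while Tdg-ps2 was at 0.599 and 0 CPM in those 2 libraries and at 43.8 to 61.4 CPM elsewhere. How reads were assigned to such copies was not tested, so their separate levels are uncertain.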
